A study of Mus musculus with 840 samples.

Results

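The AP-1 and immediate early genes Fos, Fosb, Fosl1, Fosl2, Jun, Junb, Jund, Atf3, Egr1 and Ier2 were followed across FACS gates, GFP states, plates and sequencing batches of single mammary epithelial cells. Each gene was found by matching the Ensembl identifier of its row to its symbol. All 10 were found among the 39154 genes counted, and all 10 passed the filter on low counts that left 19796 genes to test. The cells were sorted from mammary glands of SMACreERT2 or K5CreERT2 mice that carried the Rosa-N1ICD-IRES-nGFP allele and had received tamoxifen at postnatal day 21. In a cell where Cre had acted, the allele drives the intracellular part of Notch1 together with a nuclear GFP, so GFP+ cells are Notch-activated cells, and GFP- cells of the same glands had not recombined it. The drivers are promoters of basal cells (smooth muscle actin and keratin 5). GFP+ luminal cells are therefore taken here to descend from basal cells, and GFP- luminal cells to be native ones. Some luminal sums held transcripts of other cells (below). Chase times of 1, 3, 4 and 6 weeks were sampled with SMACreERT2 and 3 weeks with K5CreERT2, where the labels of 1 plate (K5B below) also carry 6 weeks, and no mouse without the Notch allele is among these cells.

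Cells had been sorted singly into 96-well plates, each from its own 1 or 2 mice, and sequenced with Smart-seq2, which reads whole transcripts. Plates are named here by Cre line and chase: SMA1w, SMA3wA and SMA6w were sequenced in batch 1, SMA3wB and SMA4w in batch 2, and SMA3wC, K5A and K5B in batch 3. Of 744 cells considered, 443 GFP+ and 68 GFP- cells passed the quality filters. By gate, 100 basal and 120 luminal GFP+ cells were kept, the other GFP+ cells being intermediate, with 17 basal, 12 intermediate and 39 luminal GFP- cells. The median depth was 402767 reads per cell in batch 1, 397250 in batch 2 and 1.49963e+06 in batch 3. Reads of the cells of 1 gate and GFP state on 1 plate were summed where at least 3 cells were kept, which gave 30 sums. In the comparisons of gates and GFP states, the plate was the replicate. Levels are given as CPM, the reads of a gene scaled to a common total of all reads on genes in the sum.

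AP-1 is a dimer of basic leucine zipper proteins, made of 1 Fos and 1 Jun family member or of a pair of Jun proteins, and it binds DNA sites that respond to growth factors and stress. Many of its genes, like Egr1 and Ier2, are immediate early genes, which are transcribed within minutes of a stimulus without new protein synthesis, through SRF with ETS factors and through CREB/ATF proteins. They are also known to rise when tissue is digested into single cells. The glands here were digested with enzymes before sorting, and no undigested sample is among these data, so levels in the gland and levels gained during digestion cannot be told apart.

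The gates were checked against their defining markers. In GFP+ cells, the keratin Krt14 ranged from 1602 to 4878 CPM over the basal GFP+ sums and from 5.204 to 404.9 CPM over the luminal GFP+ sums, while Krt8 ranged from 144.4 to 386 CPM and from 1247 to 3767 CPM. The basal GFP+ sum of plate K5B (6 cells) stood apart with 1.12 CPM of Krt5 against 628 CPM on plate K5A, although Krt14 was at 1602 CPM and Trp63 at 216.7 CPM in it. The luminal GFP- sum of K5B (6 cells) held basal transcripts, with 441.7 CPM of Krt5, 803 CPM of Krt14 and 49.8 CPM of Trp63 beside 3901 CPM of Krt8, where Krt14 was at 1.12 to 148.6 CPM in the other 6 luminal GFP- sums. On plates SMA1w, SMA3wA, SMA3wB and SMA4w the sources conflict: the wells listed in the paper's supplement as luminal and as intermediate correspond in number, exactly or nearly, to those that GEO labels the other way round. GEO's labels were used. Under them Krt8 was at 1247, 3637 and 2312 CPM in luminal and at 189.7, 553 and 265.2 CPM in intermediate GFP+ cells of SMA1w, SMA3wB and SMA4w, with too few luminal cells on SMA3wA. Notch1, the transgene's parent, overlapped between GFP+ sums (96.98 to 810 CPM) and GFP- sums (63.02 to 575 CPM), and reads of the transgene and of the native gene were not told apart. The immune marker Ptprc was at 0 in 25 of the 30 sums, every basal and luminal GFP+ sum among them. It was at 40.1 CPM in intermediate GFP- cells of K5B, at 12.5 CPM in intermediate GFP+ cells of SMA3wC, and at 0.50, 0.26 and 0.11 CPM in intermediate GFP+ cells of K5A and K5B and luminal GFP- cells of K5B.

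The regions just before the start sites are printed because control of such genes by CREB/ATF proteins is textbook background. A link between these regions and the way members vary together from cell to cell (below) was not tested. A promoter was listed for 7 of the 10 members: Fos, Fosb, Fosl2, Jun, Junb, Jund and Atf3. Shown are the 150 bases before the start of the 5 of them in which a word marked below was found. They are from RefSeq on GRCm38.p6 and on the strand of the gene. They lie at chr12:85473740-85473889 (Fos, plus strand), chr7:19310046-19310195 (Fosb, minus), chr4:95052223-95052372 (Jun, minus), chr8:84978749-84978898 (Junb, minus) and chr1:191183334-191183483 (Atf3, minus). The RefSeq start lies within 30 bases of the start of the gene as annotated by GENCODE for 4 of these 5, but that of Atf3 lies 34706 bases inside the gene, at the start of a shorter transcript. Of the other 2 promoters searched, that of Fosl2 precedes a start 671 bases inside the gene and that of Jund a start 1210 bases before it. Capitals mark the CRE half-site TGACG in Fos, Fosb and Junb, and the related 8-base words TGACATCA in Jun and TTACGTCA in Atf3.
Fos: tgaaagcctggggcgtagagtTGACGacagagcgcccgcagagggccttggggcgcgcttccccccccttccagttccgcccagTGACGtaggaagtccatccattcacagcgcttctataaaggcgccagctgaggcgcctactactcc
Fosb: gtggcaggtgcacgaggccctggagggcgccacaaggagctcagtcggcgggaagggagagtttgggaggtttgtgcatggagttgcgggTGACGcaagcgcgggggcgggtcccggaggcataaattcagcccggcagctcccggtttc
Jun: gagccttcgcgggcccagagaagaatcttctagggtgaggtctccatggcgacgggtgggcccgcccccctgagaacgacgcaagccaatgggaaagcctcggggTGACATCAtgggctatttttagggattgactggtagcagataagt
Junb: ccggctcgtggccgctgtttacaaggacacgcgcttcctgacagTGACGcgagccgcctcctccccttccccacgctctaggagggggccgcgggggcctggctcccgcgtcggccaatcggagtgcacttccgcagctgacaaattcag
Atf3: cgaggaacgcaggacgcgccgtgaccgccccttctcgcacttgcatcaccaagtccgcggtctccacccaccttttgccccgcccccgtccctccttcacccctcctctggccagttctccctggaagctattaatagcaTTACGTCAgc

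The half-site TGACG, searched on both strands, was in 4 of the 7 promoters and in 20.8% of 32851 mouse promoters of the same length. The nearer of its copies in Fos began 66 bases before the start, and that in Fosb 60 bases before it. In Atf3 it was found on the other strand, inside the word TTACGTCA, which began 10 bases before the start and was in 0.499% of promoters. TGACATCA began 45 bases before the start of Jun and was in 3.62% of promoters. These 2 longer words were chosen after the promoters had been read. The full CRE, TGACGTCA (1.79% of promoters), the AP-1 site TGACTCA (5.202%) and the CArG box bound by SRF (1.63%) were in 0 of the 7, which says only that these letters are not in these 150 bases.

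Fos (ENSMUSG00000021250, GRCm38 chromosome 12, 85473890 to 85477273), the founding subunit of AP-1, had the highest median per transcript length in batches 1 and 2 but not in batch 3, and over the GFP+ sums it varied more between plates than between gates. Its level on plate SMA1w was 4748 CPM in basal, 6529 CPM in intermediate and 5068 CPM in luminal GFP+ cells, and 14534 CPM in luminal GFP- cells. On plate SMA4w the same 4 groups were at 7907, 5431, 6361 and 4479 CPM. On plate SMA3wB they were at 2584, 1355, 2259 and 10572 CPM. The GFP- luminal cells lay above all 3 GFP+ gates on SMA1w and SMA3wB. On SMA4w they lay below them, by less than the GFP+ gates differed among themselves.

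On plate K5A, Fos was at 1250 CPM in basal, 538 CPM in intermediate and 501 CPM in luminal GFP+ cells, and at 881, 204.2 and 477 CPM in the GFP- cells of the same gates. On plate K5B the GFP+ gates were at 147.9, 940 and 187.6 CPM and the GFP- gates at 2098, 796 and 2326 CPM. On plate SMA3wC, intermediate GFP+ cells were at 365 CPM, basal GFP- cells at 3021 CPM and luminal GFP- cells at 4125 CPM. Over GFP+ sums, every one of the 7 sums of batch 3 lay below every one of the 11 sums of batches 1 and 2, which held for 0.202% of the 19796 genes. Over all sums the batches overlapped, with 1355 to 14534 CPM in batches 1 and 2 (median 4748) and 147.9 to 4125 CPM in batch 3 (median 796). The basal and luminal GFP- sums of plates SMA3wC and K5B were the ones of batch 3 above 1355 CPM.

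Chase and Cre line do not separate from batch by label alone, but the SMACreERT2 intermediate cells at 3 weeks were sequenced in all 3 batches. Fos in these cells was at 2908 CPM on SMA3wA (3 cells), 1355 CPM on SMA3wB (13 cells) and 365 CPM on SMA3wC (60 cells). The intermediate cells of the K5CreERT2 plates in batch 3 were at 538 and 940 CPM. The SMACreERT2 cells of batch 3 were thus lower than the K5CreERT2 cells of batch 3, and lower than the SMACreERT2 cells of the other batches, with 1 plate per batch. Batch 3 also differed in read layout, with paired-end in place of single-end reads, and in spike-in RNA, which took 0.2138% of reads against 8.307% and 6.636%. Mice, day, batch and Cre line cannot be told apart as the source of a difference between plates.

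**Figure D1:**
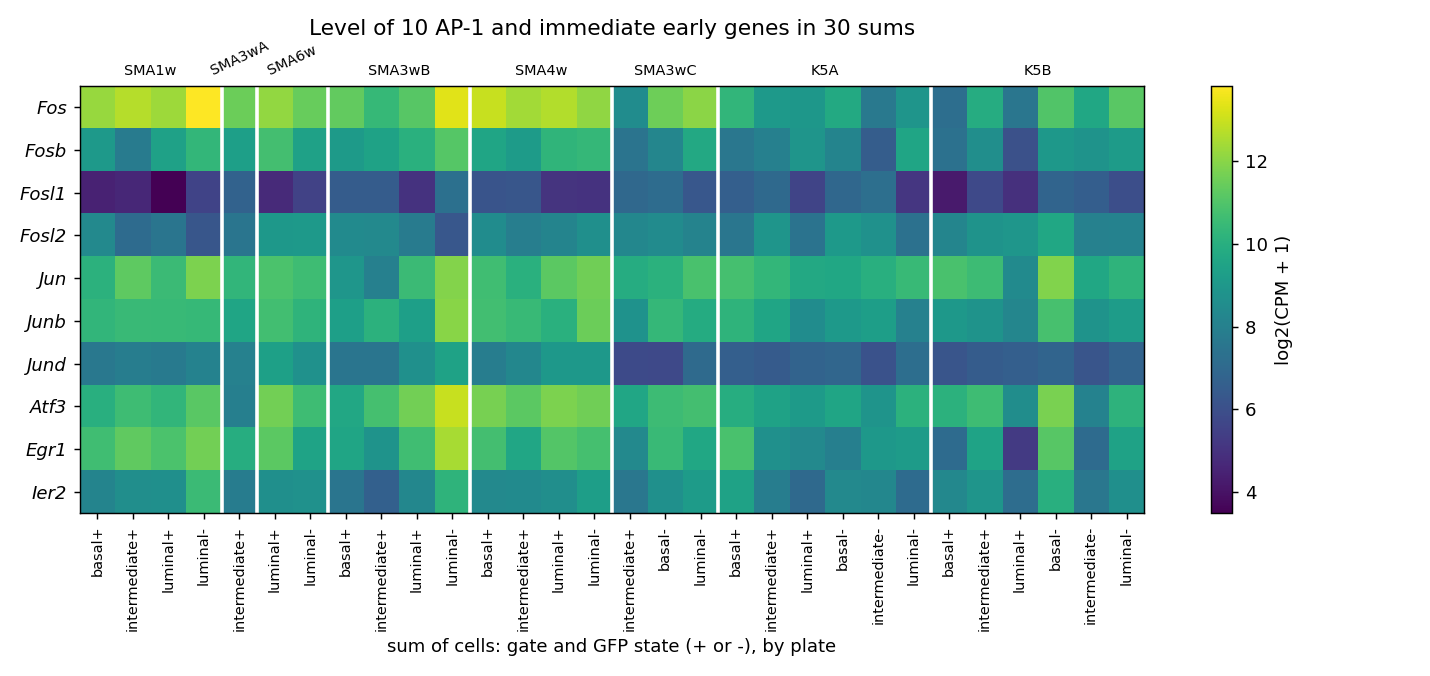
Level of the 10 members in the 30 sums, as log2(CPM + 1), with columns grouped by plate (batch 1, batch 2, then batch 3 from left to right) and ordered by gate and GFP state. Fos is bright on the plates of batches 1 and 2 (1355 to 14534 CPM) and darker on SMA3wC, K5A and K5B (147.9 to 4125 CPM), and Jund is darker in every sum of these 3 plates.

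Fosb (ENSMUSG00000003545, chromosome 7, 19302696 to 19310051), which like Fos carries a transactivating end, ranged from 65.99 to 2171 CPM, with a median of 696 CPM in batches 1 and 2 and of 299.3 CPM in batch 3. The luminal GFP+ sums held its lowest (K5B) and, among GFP+ sums, its highest level (1704 CPM on SMA6w). Fosl2 (ENSMUSG00000029135, chromosome 5, 32135801 to 32157842), a Fos relative that lacks the strong transactivating end, had close medians of 286.9 CPM in batches 1 and 2 and 308 CPM in batch 3. Its sums ranged from 74.7 CPM in luminal GFP- cells of SMA1w to 793 CPM in basal GFP- cells of K5B.

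Fosl1 (ENSMUSG00000024912, chromosome 19, 5447547 to 5455946), the other short Fos relative and a gene linked to migrating and injured epithelium, was, with Fosl2, one of the lowest members per transcript length and had a higher median in batch 3 (93.3 CPM) than in batches 1 and 2 (45.2 CPM), where 8 of the members had a lower one. In intermediate GFP+ cells it was at 23.8 (SMA1w), 107.04 (SMA3wA), 90.0002 (SMA3wB), 75.9 (SMA4w), 124.4 (SMA3wC), 127.9 (K5A) and 52.9 CPM (K5B). In luminal GFP+ cells it was at 10.2 (SMA1w), 30.9 (SMA3wB), 31.7 (SMA4w), 25.5 (SMA6w), 48.3 (K5A) and 29.2 CPM (K5B). The basal GFP+ sums were at 21.2, 89.4, 71.5, 98.5 and 17.9 CPM on SMA1w, SMA3wB, SMA4w, K5A and K5B. The luminal sum was the lowest of the 3 GFP+ gates on every plate but K5B, where the basal sum was lower.

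Among the Jun family, Jun (ENSMUSG00000052684, chromosome 4, 95049034 to 95052222), the partner of Fos in the classical dimer, ranged from 255.96 to 3844 CPM with medians of 1565 CPM in batches 1 and 2 and 1176 CPM in batch 3. Junb (ENSMUSG00000052837, chromosome 8, 84974484 to 84978718), which can restrain Jun at some targets, ranged from 260 to 4012 CPM with medians of 1377 and 521.3 CPM. Jund (ENSMUSG00000071076, chromosome 8, 70698949 to 70700616), the family member known for being made steadily in resting cells, ranged from 179.2 to 695 CPM in batches 1 and 2 (median 264.98) and from 53.8 to 147.7 CPM in batch 3 (median 96.9). Its batches did not overlap in any sum. Of the 19796 genes tested, 0.0707% lay lower in every sum of batch 3 and 0.773% lay higher in every sum of it. By group of cells, Jund on SMA4w was at 236.2, 307 and 507.3 CPM in basal, intermediate and luminal GFP+ cells and at 508.3 CPM in luminal GFP- cells. On K5A it was at 96.9, 87.01 and 110 CPM in the GFP+ gates and at 147.7 CPM in luminal GFP- cells.

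Atf3 (ENSMUSG00000026628, chromosome 1, 191170296 to 191218039), a stress-induced partner that can repress its targets, ranged from 248.7 to 8058 CPM with medians of 2335 CPM in batches 1 and 2 and 966 CPM in batch 3. Egr1 (ENSMUSG00000038418, chromosome 18, 34859823 to 34864984), a zinc finger factor outside AP-1 that is induced by the same signals, ranged from 36.6 to 5718 CPM with medians of 1697 and 516.2 CPM. Ier2 (ENSMUSG00000053560, chromosome 8, 84661331 to 84662852), a nuclear protein induced with them, ranged from 101.2 to 1504 CPM with medians of 385 and 319 CPM. The highest sums of Fos and Ier2 were the luminal GFP- cells of SMA1w, and the highest of Fosb, Fosl1, Jun, Junb, Jund, Atf3 and Egr1 were the 3 luminal GFP- cells of SMA3wB. Per transcript length, the median level over the 30 sums was 4477 TPM for Fos, 2619 for Atf3, 1852 for Jun, 1849 for Junb, 939 for Ier2, 789 for Egr1, 432 for Jund, 381 for Fosb, 137.3 for Fosl2 and 132.9 for Fosl1. Neighbours in this order overlapped over the sums, and the order changed with batch. In batches 1 and 2 the highest median was that of Fos (7881 TPM) and the lowest that of Fosl1 (84.5 TPM, with Fosl2 at 111.4). In batch 3 Atf3 (2085 TPM) and Jun (1748 TPM) lay above Fos (1596 TPM), and Fosl2 (162.2 TPM) lay below Fosl1 (216.3 TPM).

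Several members share their place with another gene. Junos lies antisense to Jun, Gm11175 to Jund, Prdx2 overlaps Junb, Ccdc85b overlaps Fosl1 and Gm24748 overlaps Atf3, each on the opposite strand. Smart-seq2 does not mark the strand, so reads of these pairs cannot be told apart. Reads in a small sum also came from few cells. In sums of at least 30 cells, the leading cell gave 17.01% to 23.4% of the Fos reads and 6.39% to 8.46% of the Jund reads, but over all 30 sums it gave up to 99.4% of the Fos reads (luminal GFP- cells of SMA3wC, 5 cells) and up to 68.9% of the Jund reads. Of the Fosl1 reads it gave 5.80% to 32.7% in sums of at least 30 cells and up to 100% over all sums.

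The plates with all 3 GFP+ gates (SMA1w, SMA3wB, SMA4w, K5A and K5B) allow the spread between plates to be set beside the spread between gates on the same plate. For Fos, 87.9% of the sum of squares of log2(CPM + 1) over these 15 sums lay between plates and 0.730% between gates. For Jund it was 82.9% and 9.54%, for Junb 72.2% and 12.8%, and for Fosl1 63.9% and 25.7%. The plate share was 62.9% for Fosb, 62.4% for Atf3, 60.3% for Egr1, 34.9% for Jun, 34.4% for Fosl2 and 24.8% for Ier2, and the gate share of each of these 6 was under that of Junb, at 1.05% to 5.45%.

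Over the 10 members, the median plate share was 62.6% and the median gate share 3.66%. Over all 19796 genes tested, the medians were 29.5% and 12.7%, with quartiles of the plate share at 20.3% and 43.1%. Fos, Jund, Junb, Fosl1, Fosb, Atf3 and Egr1 were above the upper quartile, while Jun, Fosl2 and Ier2 were within the quartiles. With the mean over cells of log2(CPM + 1) in place of sums, Fos (76.8%), Jund (86.1%), Junb, Fosl1, Fosb and Egr1 again lay above the upper quartile (48.04%), but Fosl2 was above it as well (62.5%) and Atf3 (17.7%) was below the lower quartile (21.99%). The part of the whole spread that lay between the batches was 78.96% for Jund and 74.6% for Fos, but 8.42% for Jun and 6.03% for Ier2, with a median of 47.1% over the members and 17.4% over all genes. With each cell thinned to 100000 reads, the plate share was 90.4% for Fos and 80.2% for Jund. Leaving out each plate in turn gave median plate shares of the members from 54.95% to 65.8%, and the median gate share was 13.8% without K5B, against 16.8% over all genes without that plate. These are descriptions of 5 plates, with no test.

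**Figure D2:**
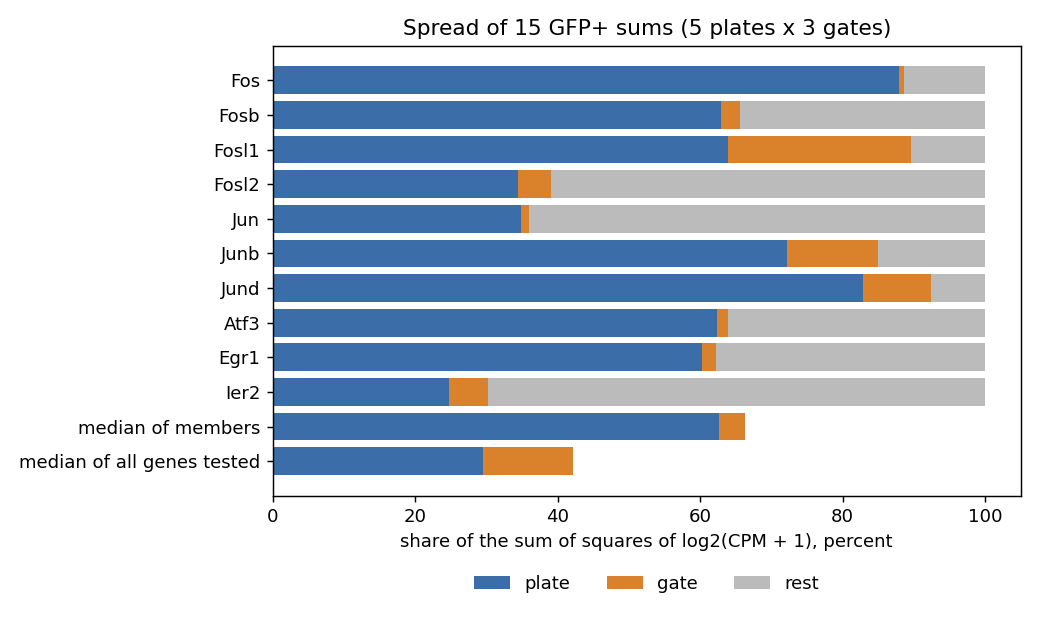
Share of the sum of squares of log2(CPM + 1), in percent, that lay between 5 plates (blue), between 3 gates (orange) and in neither (grey) over 15 GFP+ sums, for each member. The lower bars give the median plate and gate shares of the members (62.6% and 3.66%) and of all genes tested (29.5% and 12.7%), and Fos and Jund are nearly filled by blue.

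A test of the plates asked whether a gene differed between plates beyond gates and GFP states. Here the sums of a plate, which share mice, stood as the repeats of that plate. With edgeR's quasi-likelihood test and Benjamini-Hochberg adjustment, 1.07% of the 19796 genes passed an adjusted p of 0.05, and 2 of the 10 members did: Jund (adjusted p = 0.0156) and Fos (adjusted p = 0.0477). Atf3 (adjusted p = 0.255) and Fosl1 (adjusted p = 0.419) passed an unadjusted p of 0.05 only, as 10.3% of all genes did. Other fits called more members: limma on means over cells called Fos, Fosb, Fosl1, Fosl2 and Jund (5.72% of all genes), and edgeR without a filter on low counts called Fos, Jund, Fosb, Junb, Atf3 and Egr1 (3.00%). In that unfiltered edgeR fit the adjusted p of Fos was 1.19e-50, far from its value in every other fit (0.000292 or more), so its calls are given as values only. Fos lost its call by this edgeR test without SMA1w (adjusted p = 0.195), K5A (0.178), SMA4w (0.0938), SMA3wB (0.0787) or SMA3wC (0.0511), and Jund lost it without K5B (adjusted p = 0.378), K5A (0.239) or SMA4w (0.0937). With at least 5 cells in a sum the edgeR adjusted p of Fos was 0.0812, and with Cre line and chase as the unit that of Jund was 0.577. Within batch 3 alone, 0.0111% of 17985 genes differed between plates, and within batches 1 and 2, 0.00697% of 14340 genes, with no member among them (edgeR adjusted p of Fos 1 and 0.927, of Jund 1 and 0.957). With 3 and 5 plates these fits passed 2 and 1 genes in all, so they give no answer on Fos and Jund within a batch.

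The gates of the same plate were compared for GFP+ cells by the same test with the plate as a block, which takes out whatever all cells of a plate share. Luminal against basal cells gave 150 called genes (0.758%), and 0 of the 10 members passed by edgeR, with 1 (Fosl1) at an unadjusted p under 0.05, against 10.8% of all genes. By DESeq2 0 members passed as well, against 8.69% of all genes. Fosl1 was at a log2 fold change of -0.97 (SE 0.45, edgeR adjusted p = 0.429), lower in luminal cells on 4 of 5 plates. Jund was at 0.60 (SE 0.32, edgeR adjusted p = 0.512), higher in luminal cells on 5 of 5 plates. Moving 1 way on every plate was seen for 9.66% of all genes and for 1 member. The median log2 fold change was -0.41 over the members and -0.03 over all genes tested.

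The same test found the gates' own markers. Of 10 basal markers, 4 were lower in luminal cells by edgeR: Myl9 (log2 fold change -6.87), Cnn1 (-6.94) and Acta2 (-5.60), which build the contractile apparatus, and Trp63 (-6.25), the basal lineage factor. Of 10 HRneg luminal markers, 5 were higher: Ltf, Aldh1a3, Kit, Krt18 and Krt8, with log2 fold changes from 3.14 to 11.1, and of 9 tested HRpos luminal markers Cited1 was higher. Among the gate comparisons, no other marker list had a call in luminal against basal cells.

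Intermediate against basal cells gave no called gene by edgeR (0%), with 618 genes at an unadjusted p under 0.05 and 456 called by DESeq2, and 0 of the members passed by either tool or at an unadjusted p under 0.05. Fosl1 was higher in intermediate cells on 5 of 5 plates, with a log2 fold change of 0.36 (SE 0.44), and 3.61% of all genes moved 1 way on every plate in this comparison. Leaving out each plate gave 0.16 to 0.50 for Fosl1, and batches 1 and 2 alone gave 0.05 (SE 0.70). The members' log2 fold changes lay between -0.46 (Fos) and 0.36 (Fosl1), with a median of -0.12 against 0.05 over all genes.

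Luminal against intermediate cells gave 31 called genes (0.157%), among them the HRneg markers Aldh1a3, Krt18 and Krt8, and 0 of the members passed. Fosl1 came nearest: its luminal level was 0.343 to 0.552 of the intermediate level on the 5 plates. Its log2 fold change was -1.34 (SE 0.44, edgeR adjusted p = 0.294), lower on 5 of 5 plates. It stayed between -1.62 and -1.23 under the 19 alternatives run, and DESeq2, which called 5.93% of all genes in this comparison, called it, with a log2 fold change of -1.37. Junb was also lower in luminal cells on 5 of 5 plates, at -0.43 (SE 0.43, edgeR adjusted p = 0.873). Those 2 members stand against 7.74% of all genes that moved 1 way on every plate. Fosl1 is 1 member of 10, so its place here was chosen after its values had been seen.

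**Figure D3:**
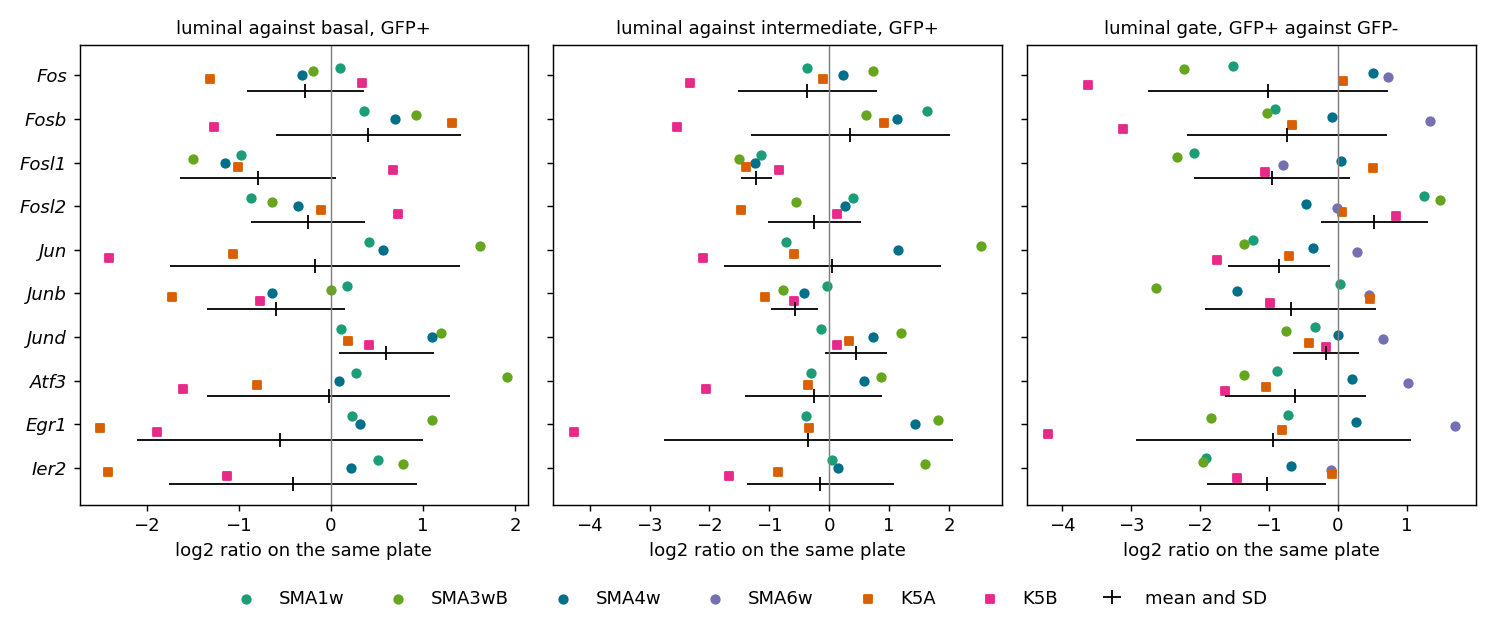
Log2 ratio of each member between 2 groups on the same plate, for luminal against basal and luminal against intermediate GFP+ cells (5 plates) and for luminal GFP+ against GFP- cells (6 plates), with circles for SMACreERT2 plates, squares for K5CreERT2 plates and black marks for the mean and SD over plates. Fosl1 lies left of 0 on all plates in the middle panel and Ier2 on all plates in the right panel, and the points of most other members fall on both sides.

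Luminal GFP+ cells, taken to derive from basal cells, were compared with luminal GFP- cells, taken to be native, on 6 plates. Ier2 was at 400 and 1504 CPM in GFP+ and GFP- cells on SMA1w, 308 and 1195 on SMA3wB, 385 and 619 on SMA4w, 395 and 424 on SMA6w, 128.8 and 136.3 on K5A and 145.6 and 402 CPM on K5B. The GFP+ sum was the lower on each plate, by a wide margin on SMA1w, SMA3wB and K5B and by little on SMA6w and K5A. The log2 fold change was -1.24 (SE 0.49, edgeR adjusted p = 0.643), lower on 6 of 6 plates, where 2.47% of all genes moved 1 way on every plate. Fos was at -1.25 (SE 0.58, edgeR adjusted p = 0.695) but lower on 3 of 6 plates only. Fosl1 was at -1.08 (SE 0.41), lower on 4 of 6 plates and higher on 2. Junb was at -0.88 (SE 0.42), lower on 3 of 6 plates and higher on 3, and leaving out each plate gave -1.17 to -0.45.

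By edgeR, 0.0303% of genes passed in this comparison and 0 of the members did, with 4 (Fos, Fosl1, Junb and Ier2) at an unadjusted p under 0.05, as were 7.04% of all genes. Leaving out 1 plate moved these 4 to 1 without SMA1w or SMA3wB, 2 without K5B or SMA3wC and 7 without SMA6w. DESeq2 called Fosl1 in it, with a log2 fold change of -1.23, and 6.21% of all genes. The median log2 fold change was -0.79 over the members and 0.39 over all genes tested, so that 9 of 10 members lay below 0 while 12878 of 19796 genes lay above it. The GFP- sums held 3 to 7 cells each, and 1 cell carried 39.7% to 93.3% of a sum's Fos reads. The summed HRpos luminal markers overlapped between the groups, with a median of 1989 CPM in 7 luminal GFP- sums (127.7 to 7633 CPM), that of SMA3wC included. In luminal GFP+ sums it was 444 CPM (55.6 to 2038 CPM). On the same plates, 9 of 9 tested HRpos markers had a log2 fold change below 0 (median -1.34), as did 34.9% of all genes, and 0 passed an unadjusted p of 0.05 by edgeR. The GFP- sum of K5B with basal keratins is among the sums compared. The part of these markers in the difference was not tested.

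The basal and intermediate gates held GFP- cells together with GFP+ cells only on the K5CreERT2 plates, with 5 or 6 GFP- cells each, so their values are given without a test. The basal GFP+ sum of K5B, which stood apart with 1.12 CPM of Krt5, is among the sums compared. In basal cells, Fosl2 was at 183.9 CPM in GFP+ and 544 CPM in GFP- cells on K5A, and at 290.6 and 793 CPM on K5B. Fosb, Fosl1 and Jund were also lower in GFP+ basal cells on both plates, while Fos, Jun, Junb, Atf3, Egr1 and Ier2 went opposite ways on the 2 plates. In intermediate cells Fos was at 538 and 204.2 CPM in GFP+ and GFP- cells on K5A and at 940 and 796 CPM on K5B. Fosl2, Jun, Junb, Jund and Atf3 were also higher in GFP+ intermediate cells on both plates. Fosl1 was lower in them on both, and Fosb, Egr1 and Ier2 went opposite ways. The share of all genes that moved the same way on both plates was not computed for the basal or the intermediate gate. The directions of the members in these gates are therefore given without a background and cannot be set apart from those of other genes.

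In luminal against basal GFP+ cells, the levels of Jun, Atf3, Egr1 and Ier2 were higher on the 3 SMACreERT2 plates and lower on the 2 K5CreERT2 plates, and 4.39% of all genes split by Cre line in this way or the reverse. Fosl2 split so in intermediate against basal cells (1 of 10 members, 6.42% of all genes) and Ier2 in luminal against intermediate cells (1 of 10, 5.17%), and 0 members did in GFP+ against GFP- cells (1.99%). Egr1 was at 1634 and 1913 CPM in basal and luminal cells of SMA1w, 747 and 1593 on SMA3wB and 1697 and 2111 on SMA4w. It was at 1856 and 326 CPM on K5A and at 137.8 and 36.6 CPM on K5B. These K5CreERT2 sums held 5 or 6 cells each, and the basal sum of K5B is the one with 1.12 CPM of Krt5. The difference of the log2 fold changes, K5CreERT2 minus SMACreERT2 plates, was -3.16 for Egr1 (SE 1.44), -2.59 for Ier2 (SE 0.89), -2.53 for Jun (SE 0.92) and -1.89 for Atf3 (SE 0.87), each with an edgeR adjusted p of 1. No gene was called in this test by edgeR (0%), against 859 genes, these 4 members among them, at an unadjusted p under 0.05. The K5CreERT2 plates were all in batch 3 and the SMACreERT2 plates compared were not, so Cre line and batch cannot be told apart.

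Across single cells, most members varied together. After each cell was thinned to 100000 reads and log2(CPM + 1) was centred within its sum, the 45 pairs of members had Pearson correlations from -0.07 to 0.57 over the cells of the 30 sums, with a median of 0.21. The highest were Fos with Egr1 (0.57), Junb with Egr1 (0.49), Atf3 with Egr1 (0.45) and Fos with Junb (0.44). With the mean of the other members, the correlation was 0.65 for Egr1, 0.55 for Fos, 0.50 for Junb, 0.48 for Atf3, 0.46 for Jun, 0.46 for Fosb, 0.42 for Ier2 and 0.32 for Jund. Fosl2 (0.15) and Fosl1 (0.04) stood outside. In batch 3 alone Fosl2 was at 0.34 and Fosl1 at 0.17, and in batches 1 and 2 they were at 0.01 and -0.08. Cells of a sum share mice, plate and library preparation, and these correlations are descriptions.

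**Figure D4:**
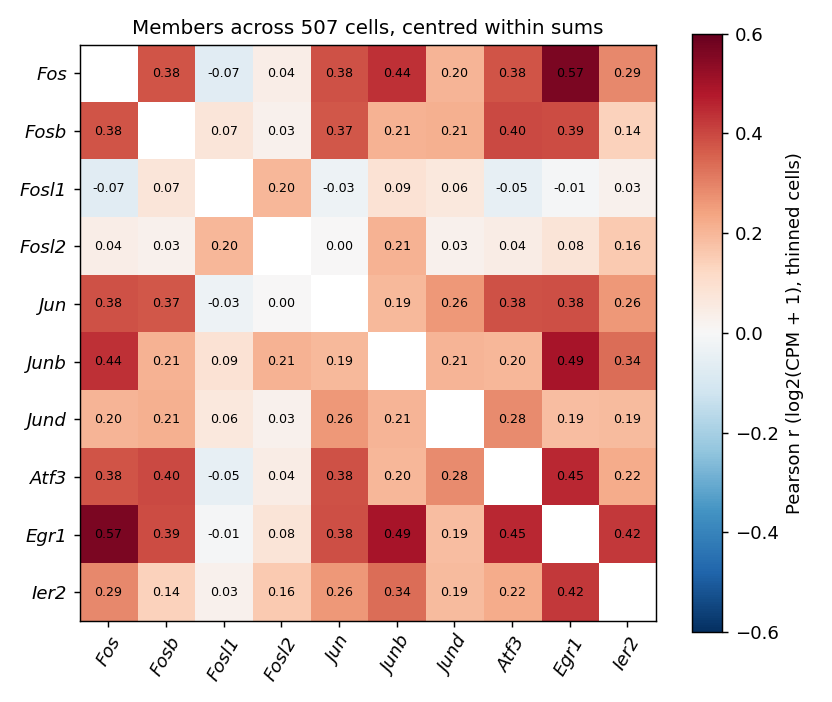
Pearson correlation between members over the cells of the 30 sums, from log2(CPM + 1) of cells thinned to 100000 reads and centred within plate, gate and GFP state. Egr1, Fos, Junb, Jun, Atf3 and Fosb form a red block, and the rows of Fosl1 and Fosl2 are pale.

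Over these cells, 8365 genes were detected in at least 20% of cells. A median of 9.73% of a member's spread lay between plates, 5.87% between gates and GFP states of a plate and 82.6% between cells of a sum, against 4.01%, 5.04% and 90.6% over those genes. Jund had 42.7% between plates, and Fos 18.9% between plates and 76.04% between cells of a sum. The share of cells with at least 1 read after thinning was 85.1% for Fos (95% Clopper-Pearson interval 81.7 to 88.1), 67.3% for Fosl1 (63.1 to 71.4) and 98.2% for Jund (96.7 to 99.2), intervals that cover counting error only. For Fos it was 94.6% in batches 1 and 2 and 75.4% in batch 3, and for Fosl1 52.5% and 82.5%. Without thinning it was 93.3% for Fos and 74.8% for Fosl1.

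Among the 10 genes outside the members that followed their mean most closely over cells, of 8355 ranked, were Zfp36 (r = 0.55), which binds AU-rich messages, Nr4a1 (0.51), an orphan nuclear receptor, Btg2 (0.50), Hspa1a (0.43), a heat shock chaperone, Csrnp1 (0.40), Ppp1r15a (0.38), Hspa1b (0.37), Dusp1 (0.36), a MAPK phosphatase, and Hspa8 (0.36). The median gene was at 0.05 and the gene at the 99th percentile at 0.24. Over the 30 sums, of 9134 genes, the 10 most alike included Zfp36 (0.80), Btg2 (0.73), Ier5l (0.71), Zdhhc9 (0.68), Cdk11b (0.67), Ier5 (0.66), Per1 (0.66), Vps35l (0.66) and Bhlhe40 (0.65), where the median gene was at -0.01 and the gene at the 99th percentile at 0.52. Within batches some of these were lower, with Ier5l at 0.32, Ier5 at 0.33, Cdk11b and Per1 at 0.42 and Zdhhc9 at 0.44 over the 15 sums of batch 3, and Vps35l at 0.35 and Bhlhe40 at 0.47 over the 15 sums of batches 1 and 2, while Zfp36 was at 0.81 and 0.60 and Btg2 at 0.69 and 0.51. The gene at the 99th percentile was at 0.59 within batch 3 and at 0.67 within batches 1 and 2. Zfp36 and Btg2 lay above it in batch 3 and below it in batches 1 and 2. They were among the genes in both lists. The mean of the members correlated over cells at -0.29 with the mitochondrial share, 0.14 with log2 reads, 0.22 with detected genes and -0.11 with the spike-in share.

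A list of 40 other immediate early genes was, like the members, chosen with earlier results of these data known. It had 0 calls in the gate and GFP comparisons by edgeR. At an unadjusted p under 0.05 were 10, 1, 6 and 2 genes in luminal against basal, intermediate against basal, luminal against intermediate and GFP+ against GFP- cells. Over all genes these shares were 10.8%, 3.12%, 8.84% and 7.04%. Between plates, 3 of the 40 were called, against 1.07% of all genes: Cebpb (edgeR adjusted p = 0.0136), Zfp36l1 (0.0233) and Socs3 (0.0263). An unadjusted p under 0.05 between plates was reached by 22 of the 40, against 10.3% of all genes. The median plate share of the list was 47.3% and its gate share 12.6%. Its summed level was 19959 CPM in batches 1 and 2 and 13452 CPM in batch 3 (medians of 15 sums each). The 3 largest changes were Id1 (-3.37), Egr2 (-3.33) and Ccn2 (-2.54) in luminal against basal cells, Ccn2 (-2.93), Ccn1 (-2.12) and Egr2 (-1.54) in intermediate against basal cells, Id1 (-3.31), Ccn1 (2.25) and Socs3 (-2.19) in luminal against intermediate cells, and Ccn2 (7.19), Id1 (1.98) and Btg2 (-1.27) in GFP+ against GFP- cells, all as log2 fold changes that did not pass.

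Of 14 heat shock genes, 0 were called between gates or GFP states, with 7 at an unadjusted p under 0.05 in luminal against basal and 5 in luminal against intermediate cells, where 10.8% and 8.84% of all genes were. Their log2 fold changes lay below 0 for 13 of 14 genes in both, against 51.2% and 53% of all genes, with medians of -0.89 and -0.59. The largest were Hsph1 (-2.47), Dnajb1 (-1.97) and Hspa1a (-1.33) against basal cells, and Hsph1 (-2.57), Dnajb1 (-1.86) and Bag3 (-1.60) against intermediate cells. Intermediate against basal cells gave Hspa1a (-0.70), Hspe1 (-0.69) and Dnajb4 (-0.59), and GFP+ against GFP- cells Hspa1b (-1.09), Hspa1a (-1.05) and Dnajb1 (-0.74). Between plates, Hspa5, the chaperone of the endoplasmic reticulum, was called (edgeR adjusted p = 0.0147), as were 1.07% of all genes. An unadjusted p under 0.05 between plates was reached by 6 of the 14, against 10.3% of all genes. The summed level of the list had medians of 7238 CPM in batches 1 and 2 and 7185 CPM in batch 3, with Hsp90ab1 the most abundant gene of nearly every sum, while the median part of a gene's spread between batches was 24.04% over the list and 17.4% over all genes.

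The genes upstream and around AP-1 gave no call in any comparison by edgeR. Among 13 tested bZIP partners, 3, 0, 2 and 1 genes passed an unadjusted p of 0.05 in luminal against basal, intermediate against basal, luminal against intermediate and GFP+ against GFP- cells, and 3 did between plates, led by Mafk, Atf4 and Atf2. Among the 3 largest fitted log2 fold changes of the list were those of Maf (-8.52) and Batf (-3.71) in the first of these, Batf (-1.70) and Batf3 (-1.05) in the second, Maf (-8.88) and Jdp2 (2.19) in the third, and Maf (-4.75) and Batf (-3.47) in the fourth, none of which passed the test. Of 15 MAPK feedback genes, 1, 1, 0 and 2 passed unadjusted, and 4 between plates, led by Dusp4, Epha2 and Areg. For both lists, the shares over all genes were 10.8%, 3.12%, 8.84% and 7.04%, and 10.3% between plates. Areg (4.50), Ereg (-2.80) and Dusp2 (-2.28) led the first comparison, Ereg (-5.11), Areg (4.74) and Dusp2 (3.11) the second, Dusp2 (-5.39), Ereg (2.32) and Dusp4 (1.03) the third, and Ereg (10.9), Spry1 (4.11) and Etv4 (1.99) the fourth.

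Of 17 SRF, ETS and kinase genes, 1, 0, 0 and 0 passed unadjusted, and 3 between plates, Srf and Mapk9 among them. Over all genes the shares were 10.8%, 3.12%, 8.84% and 7.04%, and 10.3% between plates. Among the 3 largest fitted log2 fold changes of the list were those of Elk3 (-1.503), Egfr (-1.15) and Mapk3 (0.92) in luminal against basal cells, Srf (-0.89) and Rps6ka1 (-0.68) in intermediate against basal cells, Elk3 (-1.48), Mapk14 (-1.09) and Rps6ka3 (-0.87) in luminal against intermediate cells, and Elk1 (1.94), Rps6ka3 (0.99) and Mapk3 (0.71) in GFP+ against GFP- cells. Of the genes named from these lists, Batf3 (-0.16), Dusp2 (2.76), Maf (2.82), Ereg (3.30), Batf (3.45), Id1 (3.74), Etv4 (3.86), Elk1 (3.92) and Elk3 (3.96) had mean levels under 4 on the log2 CPM scale, and their fitted changes rest on few reads and are not bounds.

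Cells stained for CD45, Ter119 or CD31, which mark immune, red blood and endothelial cells, had been gated out before the sort. Markers of other cell types were found, unevenly spread over plates. Endothelial markers (10 genes) summed to 1272 CPM in basal and 3593 CPM in intermediate GFP+ cells of SMA1w, led by Plvap in both, and Plvap (edgeR adjusted p = 0.0207) and Emcn (0.0496) differed between plates. Salivary and lacrimal acinar markers summed to 32193 CPM in luminal GFP+ cells of SMA1w, of which Bpifa2 made 26188 CPM, and Bpifa2 (edgeR adjusted p = 0.00435) and Smr3a (0.0270) differed between plates. Of all genes, 1.07% were called between plates. Acinar markers also leaned 1 way within plates. In luminal against basal, intermediate against basal, luminal against intermediate and GFP+ against GFP- cells, their median log2 fold changes were 7.56, 5.10, 2.30 and 4.29. Of the 6 tested, 6, 6, 4 and 5 lay above 0, and 4, 3, 1 and 3 passed an unadjusted p of 0.05 by edgeR. Over all genes the unadjusted shares were 10.8%, 3.12%, 8.84% and 7.04%, and 0 of the 6 were called. Immune markers reached 2193 CPM in intermediate GFP- cells of K5B, led by Cd74, and adipocyte and sebaceous markers 1644 CPM in basal GFP+ cells of K5B, led by Mgst1. Fibroblast markers reached 232.4 CPM and markers of glia, muscle and pericytes 577 CPM, and the immune, fibroblast, adipocyte and glial lists had no call in any comparison. On SMA1w, where the endothelial and acinar levels were high, Fos was at 4748, 6529 and 5068 CPM in the GFP+ gates. On SMA4w, where the endothelial list summed to 53.1, 2.03 and 9.14 CPM in the same gates, Fos was at 7907, 5431 and 6361 CPM. Their part in the members' levels was not tested.

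The 6-week plate SMA6w had been sequenced again in batch 2, which sets the sequencing run apart from the cells. In 43 kept cells with both runs (medians of 267543 and 197517 reads per cell), luminal GFP+ cells (36) gave 4582 and 4357 CPM of Fos and 655 and 677 CPM of Jund. Over the 10 members and both GFP states, the log2 difference between runs was -0.34 to 0.18, and the Pearson correlation over cells was 0.92 to 0.999, as a description of repeated libraries. These runs differ between batches 1 and 2 only, and no cell of batch 3 was sequenced in another batch.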

How the data were processed

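Read counts per gene and cell were made and deposited by the authors. Per the labels and the submitters' processing notes, reads were trimmed with Trim Galore 0.6.5, aligned with STAR 2.7.7a to GRCm38 and counted with HTSeq 0.13.5. All columns could be mapped to a sample (0 could not). Following the study's methods, a cell was kept if mitochondrial genes took less than 10% of its reads, more than 1400 genes were detected, its total exceeded 100000, Epcam had 2 reads or more and Dcpp1 had 1 or none; more cells passed here than the study analysed. No doublet caller was run, since cells had been index-sorted singly. The repeat run of plate SMA6w was kept apart.

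Counts of kept cells were summed per plate, gate and GFP state (at least 3 cells) and tested with edgeR 4.0.16 (R 4.3.3; quasi-likelihood test, filterByExpr, TMM) with the plate as a block, which pairs groups from the same mice, and p-values adjusted over 19796 genes. DESeq2 1.42.0 and limma 3.58.1 on means over cells were alternatives, with others on filters, depth, units and left-out plates; within-batch fits, the left-out plates in the spread shares and the test between Cre lines were added after seeing the data. In the gate and GFP comparisons, p-values weigh a difference against how much it varies from plate to plate. In the test between plates, they weigh plates against the spread among sums of the same plate, which share mice. The luminal against basal test was tried on simulated counts with the same scatter for every gene. Such counts do not mimic sums led by a single cell, so the trial gives no answer for those. Levels per length (TPM) used the summed exon length. Named genes are the members, the genes of fixed lists past the threshold or otherwise the 3 with the largest changes, and the 10 most correlated with the members over cells and over sums. The members and lists were chosen with earlier results of these data known. A few genes of the lists and rankings are not reported here, though counts over a list include them.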

Additional observations from a re-analysis of the deposited data

Results flagged for a closer look

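In 2 of 40 groups of sums, 1 sum stood apart from the others by Dixon's criterion, which chance gives in about 1 in 20 groups. Atf3 in basal GFP+ cells was at 3360 CPM on SMA4w, with the next sum at 1131 CPM, and Jun in intermediate GFP+ cells was at 255.96 CPM on SMA3wB, with the next at 959 CPM.

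For 6 combinations of member and comparison, every SMACreERT2 plate moved one way and every K5CreERT2 plate the other. The same split was seen for 4.39%, 6.42%, 5.17% and 1.99% of all genes in luminal against basal, intermediate against basal, luminal against intermediate and GFP+ against GFP- cells. The difference in log2 fold change, K5CreERT2 minus SMACreERT2, was -2.53 for Jun (SE 0.92), -1.89 for Atf3 (SE 0.87), -3.16 for Egr1 (SE 1.44) and -2.59 for Ier2 (SE 0.89) in luminal against basal cells. It was 1.76 for Fosl2 (SE 0.77) in intermediate against basal cells and -1.93 for Ier2 (SE 0.87) in luminal against intermediate cells. By edgeR's test of the difference itself each had an adjusted p of 1, over 3 SMACreERT2 and 2 K5CreERT2 plates, and Cre line and batch cannot be told apart. The basal and luminal GFP+ sums of the K5CreERT2 plates held 5 or 6 cells each.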

How the results depend on the processing

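The share of genes tested that passed was 0.758%, 0%, 0.157%, 0.0303% and 1.07% for luminal against basal, intermediate against basal, luminal against intermediate, GFP+ against GFP- cells and plates by edgeR. In the same order it was 8.69%, 2.30%, 5.93%, 6.21% and 4.90% by DESeq2 and 1.83%, 0.166%, 1.14%, 0.465% and 3.00% of the genes tested without a filter on low counts. For luminal against basal, luminal against intermediate and GFP+ against GFP- cells it was 2.79%, 1.43% and 0.0101% by limma on means over cells (5.72% for plates), 1.13%, 0.388% and 0.0497% with at least 5 cells in a sum, 3.07%, 1.18% and 0.00858% with thinned cells, and 0.562%, 0% and 0% with only the 2 groups compared. A Dcpp1 limit of 100 reads gave 1.71% and 0.551% for luminal against basal and against intermediate cells. Within batch 3 the same 3 comparisons and the plates gave 0.0778%, 0.0445%, 0% and 0.0111%, and within batches 1 and 2 they gave 0.132%, 0.0418%, 0% and 0.00697%. Without the replicate block for the plate, 0.364% passed in luminal against intermediate cells, and with Cre line and chase as the unit 0.328% differed between plates. Leaving out each plate gave 0.195% to 0.744% for luminal against basal, 0.0563% to 0.190% for luminal against intermediate, 0% to 0.0564% for GFP+ against GFP- cells and 0.461% to 1.08% for plates, lowest without SMA3wB in the gate comparisons, SMA3wB or SMA4w for GFP and K5A for plates. The members' median gate share was 2.22% to 13.8%, highest without K5B.

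Of 760 recomputed fold changes of members, 98 changed sign, 73 of them within 1 SE, and 3 passed the threshold: Fosl1 by DESeq2 in luminal against intermediate and in GFP+ against GFP- cells, and Fos without a filter in GFP+ against GFP- cells. In luminal against basal cells, log2 fold changes that turned were Fosb -0.97 and Jun 0.45 by limma, Fosl2 0.26 and Atf3 -1.26 within batch 3, and Jun 0.89, Egr1 0.67 and Ier2 0.54 within batches 1 and 2. Leaving out plates gave -0.66 to 0.43 for Egr1 and -0.83 to 0.15 for Ier2, turned without K5A. In intermediate against basal cells, Fosb was 0.66 and Fosl2 0.90 within batch 3, Jun 0.39 by limma, and leaving out plates gave -1.23 to 0.52 for Egr1 and -0.72 to 0.23 for Ier2, turned without K5A. In luminal against intermediate cells, Fos was -0.69, Fosb -0.12, Jun -1.23 and Egr1 -2.07 within batch 3, Fosb -0.44 and Junb 0.013 by limma, Atf3 0.48 and Ier2 0.58 within batches 1 and 2, and Atf3 0.51 without the replicate block. In GFP+ against GFP- cells, Jund was 0.085 without the replicate block and 0.19 with Cre line and chase as the unit. The cause of these shifts was not tested. Few cells per sum and few plates limit all comparisons, and batch 3 holds both K5CreERT2 plates.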
